A study of Mus musculus with 35 samples.

Results

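The genes described here are 9 markers of the surfactant system and of the alveolar type 2 cell that makes it: Sftpa1, Sftpb, Sftpc, Sftpd, Abca3, Lamp3, Lpcat1, Slc34a2 and Napsa. They were chosen by symbol, taking every array probe whose RefSeq transcript carries one of these names, which gave 11 of the 55681 probes on the array for 9 of its 20660 named genes; Sftpb and Sftpd have 2 probes each. The RNA came from lungs of female C57BL/6 mice, 5 to 7 weeks old, that had received a single instillation into the trachea 24 h earlier. The dosed groups were NRCWE-043 at 18 and at 54 µg per animal, NRCWE-044 at 18 and at 54 µg, and NRCWE-045 at 18 and at 54 µg, each in a 40 µl suspension, and the last group was the control at 0 µg, for which the labels do not say what was instilled. The 3 materials are known here by these code names only. Each of the 7 groups had 5 arrays, 35 in all, with RNA taken from random sections of the lung; the labels do not say that the 5 sections of a group came from 5 animals, so each p-value speaks of sample-to-sample spread, which may be technical. The title of the series names its aim, to rank nanomaterials by their potency to perturb lung pathways.

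Pulmonary surfactant is a film of phospholipid and protein that lowers surface tension in the alveolus and keeps it open during breathing out. Alveolar type 2 cells synthesise the lipids, assemble them with the small hydrophobic proteins SP-B and SP-C in lamellar bodies, and secrete them, while the larger collectins SP-A and SP-D bind microbes and particles in the airspace. The same cells proliferate after alveolar injury and give rise to type 1 cells, which makes their transcripts a common readout in inhalation toxicology.

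The promoters at hand are shown first, as a description of sequence. Whether promoter letters bear on how the genes varied together from array to array was not tested. RefSeq promoter sequence (GRCm38.p6) was at hand for 6 of the 9 genes. It was missing for Sftpc, Sftpd and Napsa, so the surfactant protein genes cannot be compared as a set. For Sftpa1, Sftpb, Lamp3 and Lpcat1 the 250 bases before the annotated start are printed 5′ to 3′ on the strand of the gene. Capitals mark CTNNAG, the core of sites described for the lung transcription factor NKX2-1 in surfactant promoters, and TATAAA, the letters of a TATA box. Sftpa1 lies at chr14:41131538-41131787 on the plus strand, Sftpb at chr6:72304360-72304609 on the plus strand, Lamp3 at chr16:19706366-19706615 on the minus strand and Lpcat1 at chr13:73466981-73467230 on the plus strand.
Sftpa1: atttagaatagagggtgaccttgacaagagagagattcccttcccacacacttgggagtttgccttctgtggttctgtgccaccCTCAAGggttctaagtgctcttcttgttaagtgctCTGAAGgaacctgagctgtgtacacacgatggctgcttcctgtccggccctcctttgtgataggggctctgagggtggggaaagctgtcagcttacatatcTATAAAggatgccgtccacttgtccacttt
Sftpb: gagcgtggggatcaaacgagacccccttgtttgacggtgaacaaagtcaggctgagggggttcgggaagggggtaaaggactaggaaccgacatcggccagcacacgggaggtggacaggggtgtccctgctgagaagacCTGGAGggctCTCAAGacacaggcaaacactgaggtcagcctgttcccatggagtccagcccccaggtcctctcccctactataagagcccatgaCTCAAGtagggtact
Lamp3: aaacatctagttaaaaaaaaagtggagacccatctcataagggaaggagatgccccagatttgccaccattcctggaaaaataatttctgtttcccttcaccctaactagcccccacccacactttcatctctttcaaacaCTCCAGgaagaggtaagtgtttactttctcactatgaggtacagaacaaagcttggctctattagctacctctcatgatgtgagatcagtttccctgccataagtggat
Lpcat1: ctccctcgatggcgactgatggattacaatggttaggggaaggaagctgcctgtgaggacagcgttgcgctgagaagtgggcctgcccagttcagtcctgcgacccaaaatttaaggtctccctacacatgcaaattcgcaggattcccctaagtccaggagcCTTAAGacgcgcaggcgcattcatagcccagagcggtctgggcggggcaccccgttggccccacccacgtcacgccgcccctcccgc

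Both strands were searched; CTNNAG reads the same on either strand, and CTCAAG is 1 of its instances, so these matches overlap. Sftpb held 3 CTNNAG matches, beginning 110, 100 and 15 bases before the start, of which 2 read CTCAAG. Sftpa1 held 2 CTNNAG matches, at 166 and 131 bases, of which 1 read CTCAAG, and the 1 TATAAA among the 6 promoters. Abca3 held 2 CTNNAG matches, Lamp3 and Lpcat1 held 1 each, and Slc34a2 held none. CTNNAG was present in 73.0% of all 27025 RefSeq promoters of this length, CTCAAG in 13.6% and TATAAA in 13.0%. A match describes letters in this window and is not evidence of a bound site. The 9 genes lie on 7 chromosomes: Slc34a2 on 5, Sftpb on 6, Napsa on 7, Lpcat1 on 13, Sftpa1, Sftpc and Sftpd on 14, Lamp3 on 16 and Abca3 on 17. Sftpa1 and Sftpd are near neighbours, with Gm7920 and Mbl1 between them.

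Lung RNA was labelled with Cy5 and hybridised against a common reference RNA from 11 mouse cell lines labelled with Cy3, in the same orientation on every array. Levels are therefore log2 ratios of lung over reference, and the ratio of 1 gene cannot be set against that of another. All 11 member probes were well above background in the lung channel on all 35 arrays, and none was saturated there; in the reference channel Slc34a2 was above background on 28 arrays, Sftpa1 on 34 and the other members on 35. The Lpcat1 probe was the dimmest member, with a Cy5 signal of 313 to 2185.5 and a median of 767. Over whole arrays 42.8% to 69.3% of probes were above background in Cy5. In bulk lung RNA, fewer type 2 cells and less RNA per cell cannot be told apart. Arrays were run on 7 slides holding 3 to 8 arrays each. On 9 arrays, spread over all 7 groups, the mean log2 ratio of 11 heart muscle markers was above 1.5. Replicates 5 and 10 of NRCWE-043 at 18 µg and replicates 6 and 23 of NRCWE-044 at 18 µg stood apart in an earlier analysis of these data, and fits without these 4 arrays are given beside the main differences that they moved.

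**Figure D1:**
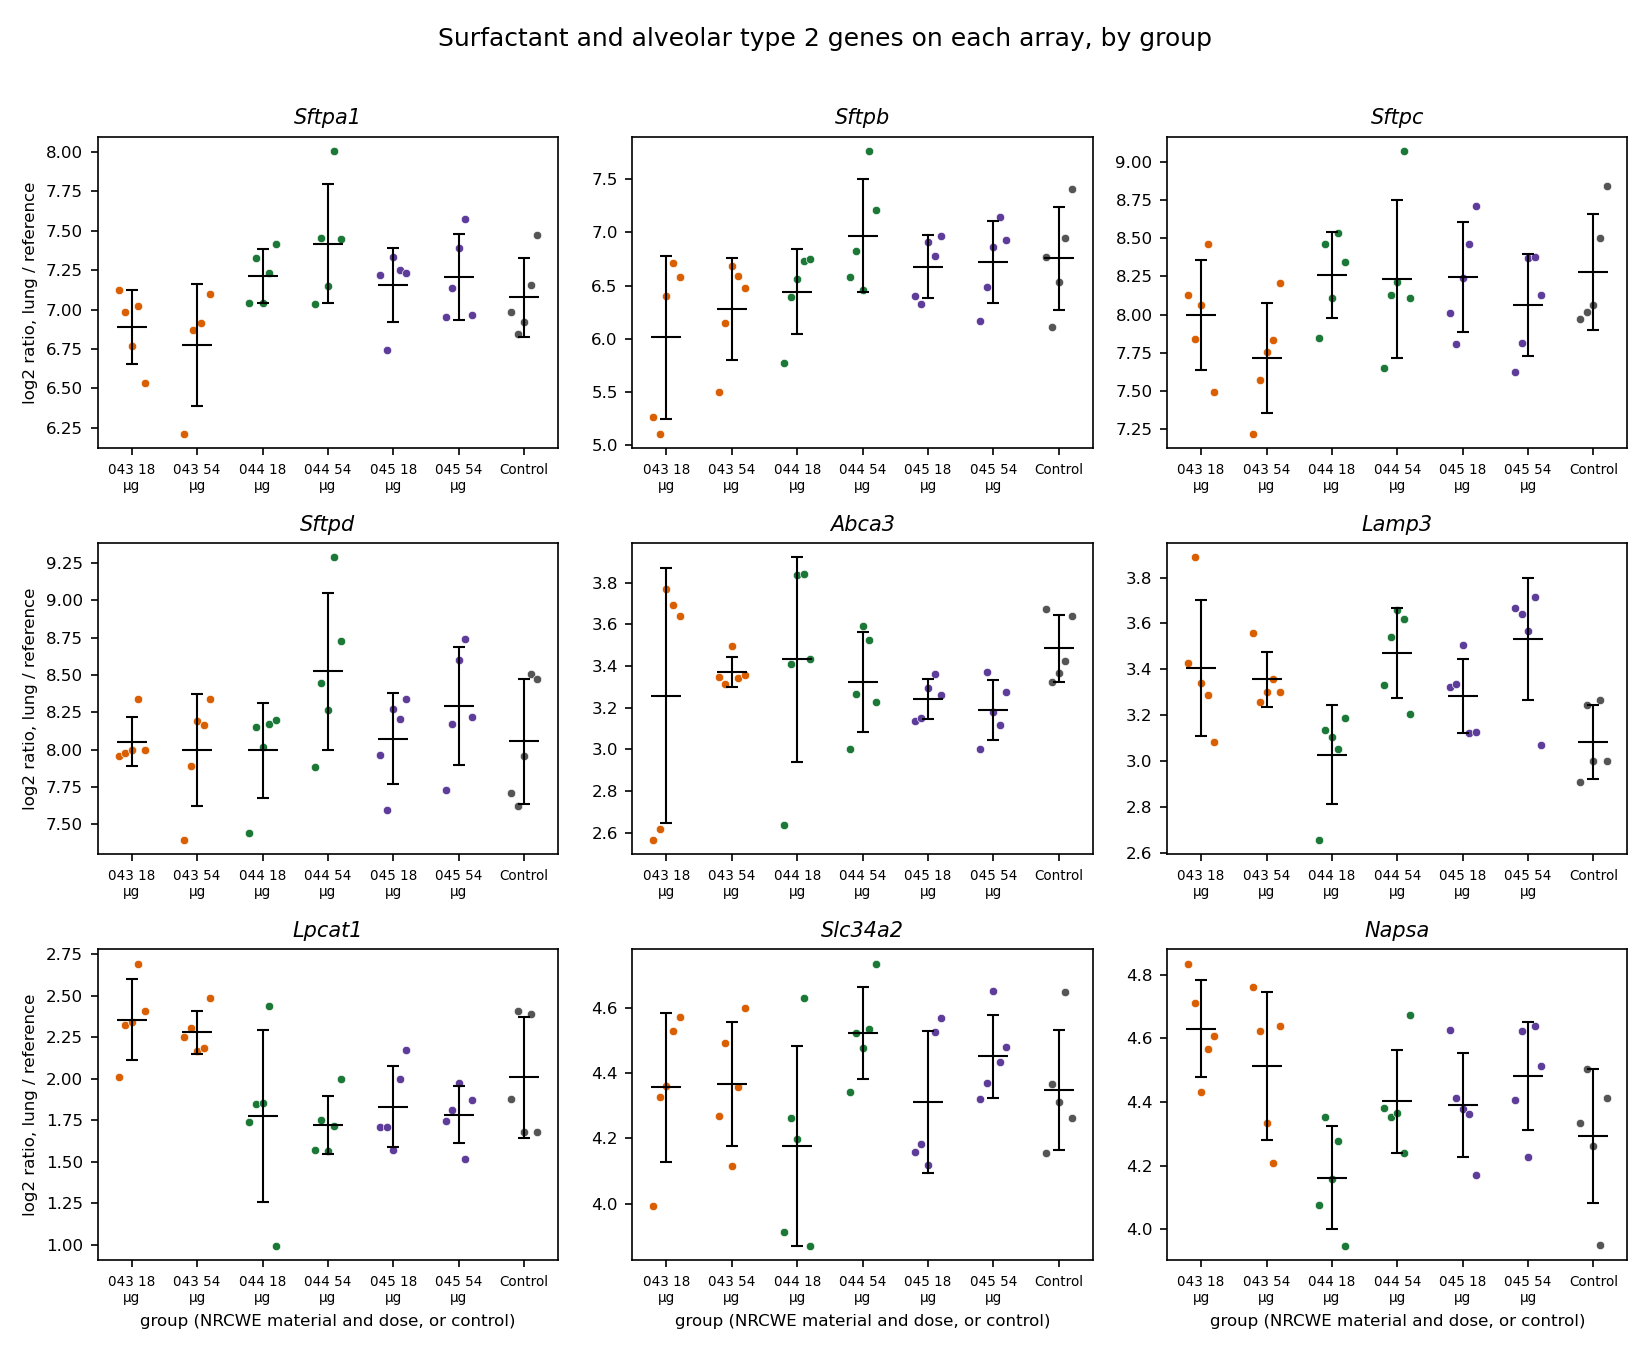
Log2 ratio of lung over reference RNA (vertical axis) on each array for the 9 genes, by group from NRCWE-043 at 18 µg to control; points are arrays and bars the group mean ± SD (n = 5 arrays, 4 for Sftpa1 in NRCWE-043 at 54 µg). The Sftpb points spread over 2.65 log2 units and those of Slc34a2 over 0.86, and dosed and control points overlap in every panel.

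In the main fit, which had no slide term, none of the 9 genes passed the test against control in any of the 6 dosed groups. With slide as a fixed block, Sftpb in NRCWE-043 at 18 µg passed. So did Sftpd and Lamp3 in NRCWE-044 at 54 µg and Lamp3 in NRCWE-045 at 54 µg. Other settings that gave calls are named further below, and what follows here is from the main fit. All 54 comparisons with control had overlapping groups. No share over all features is set beside this, so it is not read as particular to the members. The differences ranged up to 0.74 log2 units in size, with 95% intervals that extended 0.23 to 0.60 units to either side. The test was limma's moderated test on log2 ratios, adjusted by Benjamini-Hochberg over all 29719 features tested, with a call at an adjusted p below 0.05. For NRCWE-043 at 18 µg, 0 of 9 members were called, where 3.93% of all features were called. At an unadjusted p below 0.05 there were 3 members, against 18.6% of all features. At 54 µg of NRCWE-043, 0 of 9 members were called against 9.11% of all features, with 2 members unadjusted against 21.9%. For NRCWE-044 at 18 µg, 0 of 9 were called (0 unadjusted), with 0% of all features called and 3177 unadjusted. For NRCWE-044 at 54 µg, 0 of 9 were called against 5.25% of all features, with 2 members unadjusted against 18.2%. For NRCWE-045 at 18 µg, 0 of 9 were called (0 unadjusted), with 0% of all features called and 852 unadjusted. For NRCWE-045 at 54 µg, 0 of 9 were called against 0.256% of all features, with 1 member unadjusted against 8.77%. The median change over the members was -0.00, -0.06 and 0.17 log2 units for NRCWE-043 at 18 µg, NRCWE-043 at 54 µg and NRCWE-044 at 54 µg, where the median over all features was 0.00, 0.01 and 0.00. These 6 comparisons share the same 5 control arrays.

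**Figure D2:**
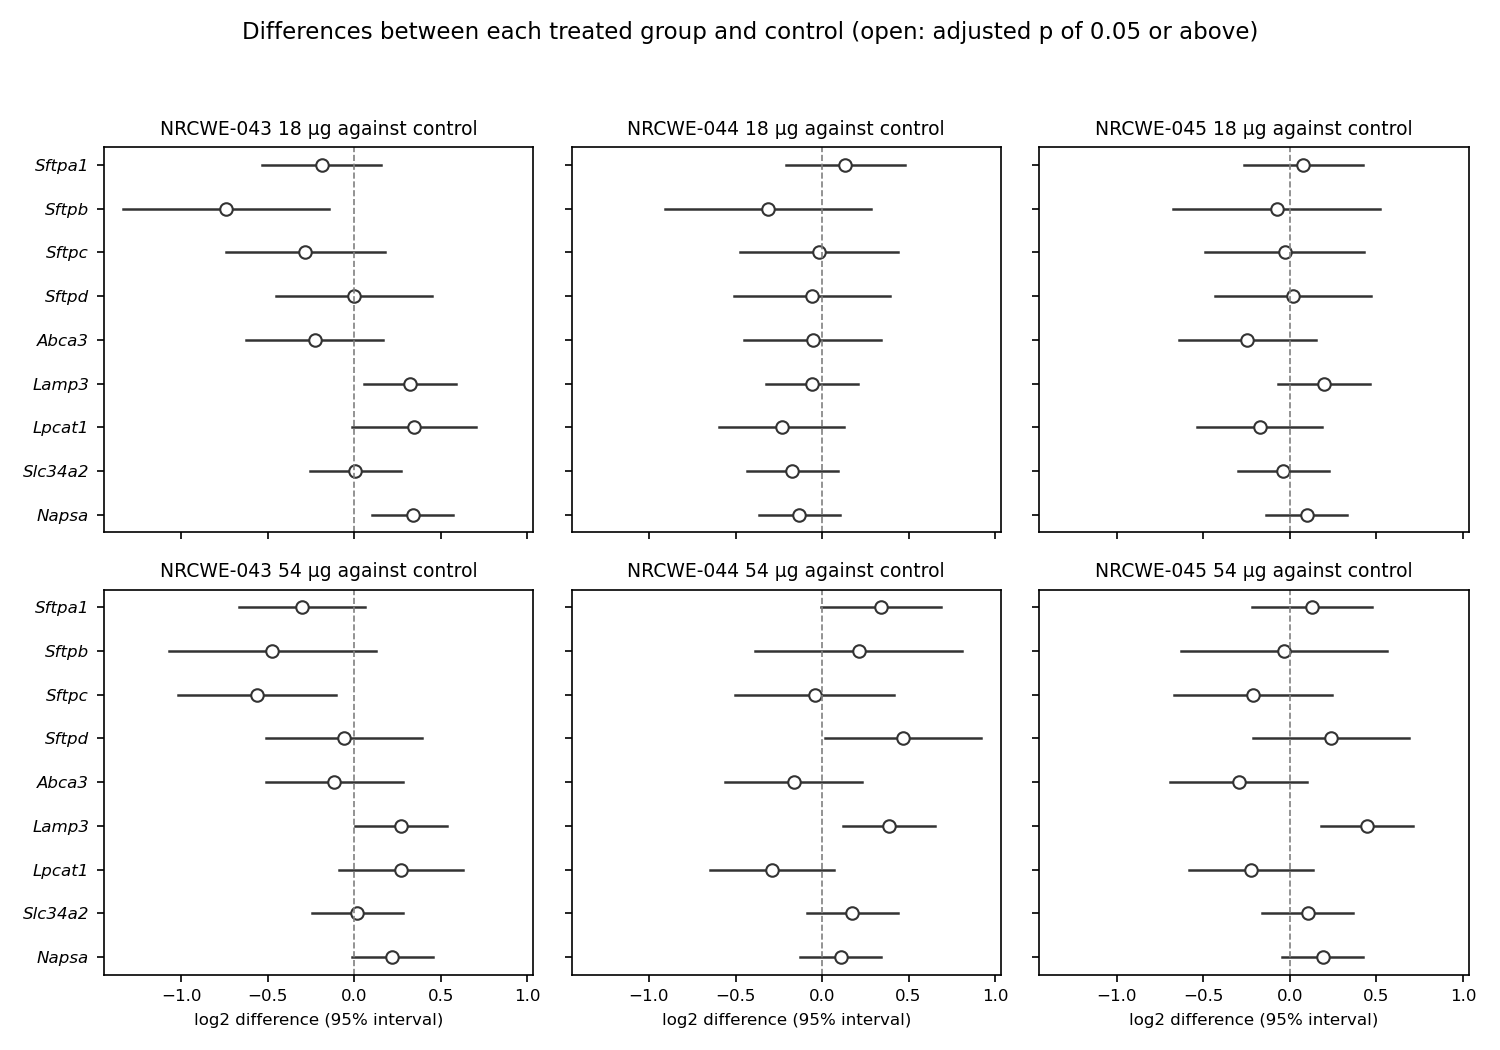
Difference from control in log2 ratio (horizontal axis) for each of the 9 genes in the 6 dosed groups; circles are limma estimates, lines their 95% intervals, and open circles have an adjusted p of 0.05 or above. No circle is filled; the Sftpb estimate for NRCWE-043 at 18 µg lies farthest from 0, at -0.74.

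Among the hydrophobic surfactant proteins, Sftpb and Sftpc had their lowest group means after NRCWE-043. Sftpb encodes SP-B, which is needed for lamellar body formation and for spreading of the film. Its log2 ratios were 5.27, 5.11, 6.41, 6.71 and 6.58 in NRCWE-043 at 18 µg, against 6.77, 6.11, 6.53, 6.95 and 7.40 in control. The first 2 of the NRCWE-043 arrays, replicates 5 and 10, lay below every control array and the other 3 lay among them. The difference was -0.74 (95% interval -1.33 to -0.14; limma adjusted p = 0.16). On the 2 slides that held both groups it was -1.17 and -0.13. Without replicates 5, 6, 10 and 23 the Sftpb difference was -0.19 (adjusted p = 0.79); with all arrays and slide as a fixed block it was -0.66 (adjusted p = 0.043). At 54 µg of NRCWE-043 the Sftpb difference was -0.47 (adjusted p = 0.37), and in the other 4 dosed groups the means were 6.44 to 6.96, against 6.75 ± 0.48 in control (SD, n = 5).

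Sftpc encodes SP-C, the peptide that most often identifies type 2 cells. Its log2 ratios were 7.22, 7.57, 7.75, 7.83 and 8.21 in NRCWE-043 at 54 µg, against 7.97, 8.01, 8.06, 8.50 and 8.84 in control. Every NRCWE-043 array was below the control mean of 8.28, and the highest of them lay above 3 of the 5 control arrays. The difference was -0.56 (95% interval -1.02 to -0.11; limma adjusted p = 0.12), with -0.77 and -0.27 on the 2 slides that held both groups. At 18 µg of NRCWE-043 the Sftpc difference was -0.28 (adjusted p = 0.54), and the other 4 dosed groups averaged 8.06 to 8.26. The 5 red blood cell markers tested had a mean log2 ratio of 4.33 to 5.38 over arrays of NRCWE-043 at 18 µg and 4.52 to 5.34 at 54 µg, against 4.89 to 6.13 in control, and none of them was called. Over 35 arrays this mean had r = 0.80 with Sftpb, 0.76 with Sftpc, 0.64 with Sftpd and 0.60 with Sftpa1, a description of arrays that share slides and the reference. The part of blood in these values was not tested.

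The collectins Sftpa1 and Sftpd, encoding SP-A and SP-D, had their highest group means after 54 µg of NRCWE-044. Sftpd log2 ratios there were 7.88, 8.45, 8.27, 9.29 and 8.73, against 7.71, 7.62, 7.96, 8.51 and 8.47 in control. Replicate 31 at 9.29 and replicate 34 at 8.73 exceeded every control array, and the other 3 lay within the control range. The Sftpd difference was 0.47 (95% interval 0.02 to 0.92; limma adjusted p = 0.25), and it was 0.28 (adjusted p = 0.54) without replicate 31. With all arrays and slide as a fixed block the Sftpd difference was 0.43 (adjusted p = 0.036). Sftpd means in the other 5 dosed groups lay between 8.00 ± 0.32 in NRCWE-044 at 18 µg and 8.29 ± 0.40 in NRCWE-045 at 54 µg, against 8.05 ± 0.42 in control (SD, n = 5 each). The Sftpa1 difference in NRCWE-044 at 54 µg was 0.34 (95% interval -0.00 to 0.69; adjusted p = 0.28).

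Sftpa1 was higher after NRCWE-044 than after NRCWE-043 at 54 µg. Its log2 ratios were 7.04, 7.45, 7.15, 8.00 and 7.45 in NRCWE-044 at 54 µg, against 6.21, 6.87, 6.92 and 7.10 on 4 arrays of NRCWE-043 at 54 µg; replicate 16 of NRCWE-043 had a marked spot and was left out of the fit for this gene. All 5 NRCWE-044 arrays lay above the NRCWE-043 mean of 6.77, and the groups overlapped by 1 array of each, at 7.04 and 7.10. The difference was 0.64 (95% interval 0.28 to 1.01), or 1.56-fold, with a limma adjusted p of 0.020. It was 0.05 to 0.82 on the 3 slides that held both groups. The call was lost without replicate 3 of NRCWE-043 (0.46, adjusted p = 0.15) and without replicate 31 of NRCWE-044 (0.50, adjusted p = 0.086), and in the lung channel alone the difference was -0.07 (adjusted p = 0.88). At 18 µg the Sftpa1 difference between NRCWE-044 and NRCWE-043 was 0.32 (adjusted p = 0.24). NRCWE-045 lay between them at 54 µg, with Sftpa1 ratios of 6.95, 7.14, 7.39, 7.57 and 6.97, and differed from NRCWE-043 by 0.43 (adjusted p = 0.20); the control arrays read 6.99, 6.85, 6.92, 7.16 and 7.47. The other 3 surfactant protein genes differed by 0.68 (Sftpb, adjusted p = 0.18), 0.52 (Sftpc, adjusted p = 0.19) and 0.53 (Sftpd, adjusted p = 0.17) at 54 µg of NRCWE-044 against NRCWE-043, and none of these passed.

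Abca3, the lipid transporter of the lamellar body membrane, was not called in any comparison. In NRCWE-043 at 18 µg its log2 ratios were 2.56, 2.62, 3.77, 3.70 and 3.64, and in NRCWE-044 at 18 µg they were 2.64, 3.41, 3.84, 3.84 and 3.43, against 3.67, 3.32, 3.37, 3.43 and 3.64 in control. Replicates 5, 10 and 6 gave the 3 lowest Abca3 values, and the other 32 arrays spanned 3.00 to 3.84. The difference from control that was largest in size was -0.30 (95% interval -0.69 to 0.10; limma adjusted p = 0.75), for NRCWE-045 at 54 µg. The Abca3 ratios of the NRCWE-045 groups were tighter, at 3.00, 3.37, 3.18, 3.12 and 3.28 for 54 µg and 3.14, 3.15, 3.29, 3.36 and 3.26 for 18 µg. Without replicates 5, 6, 10 and 23, Abca3 was lower after 54 than after 18 µg of NRCWE-044 (-0.37, adjusted p = 0.040) and lower after NRCWE-045 than after NRCWE-043 at 18 µg (-0.46, adjusted p = 0.012). With those arrays in the fit these differences were -0.11 (adjusted p = 0.82) and -0.02 (adjusted p = 0.97).

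Lamp3 encodes DC-LAMP, a lysosomal membrane glycoprotein carried by lamellar bodies and also by mature dendritic cells. It was higher after 54 than after 18 µg of NRCWE-044. Log2 ratios were 3.33, 3.54, 3.66, 3.62 and 3.20 at 54 µg, against 2.66, 3.14, 3.11, 3.06 and 3.19 at 18 µg. The 5 arrays at 54 µg all lay above the 5 at 18 µg, with the nearest pair at 3.20 and 3.19. The difference was 0.44 (95% interval 0.18 to 0.71), or 1.36-fold, with a limma adjusted p of 0.039, and it was 0.44 to 0.67 on the 3 slides that held both doses. It was 0.35 (adjusted p = 0.13) without replicate 6, the lowest array, 0.37 (adjusted p = 0.063) without replicates 5, 6, 10 and 23, and 0.51 (adjusted p = 0.11) without the arrays with a heart muscle score above 1.5.

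Against control, Lamp3 averaged 3.53 ± 0.26 in NRCWE-045 at 54 µg and 3.47 ± 0.20 in NRCWE-044 at 54 µg, against 3.09 ± 0.16 in control (SD, n = 5 each). The NRCWE-045 arrays read 3.67, 3.64, 3.57, 3.71 and 3.07 and the control arrays 2.91, 3.24, 3.00, 3.27 and 3.00. All but replicate 35 of NRCWE-045 lay above the whole control group. The differences were 0.45 (95% interval 0.18 to 0.71; limma adjusted p = 0.15) for NRCWE-045 and 0.39 (95% interval 0.12 to 0.65; adjusted p = 0.083) for NRCWE-044, and neither passed. With slide as a fixed block both passed, at 0.53 (adjusted p = 0.040) for Lamp3 in NRCWE-045 and 0.46 (adjusted p = 0.015) in NRCWE-044. Without replicate 35 the NRCWE-045 difference was 0.56 (adjusted p = 0.039), and over all omissions of 1 array its adjusted p reached 0.38. In the fit without replicates 5, 6, 10 and 23, none of which is in these groups, both Lamp3 differences kept their size and passed (adjusted p = 0.034 for NRCWE-045 and 0.022 for NRCWE-044). Without the arrays with a heart muscle score above 1.5 neither passed (adjusted p = 0.56 for NRCWE-045 and 0.31 for NRCWE-044). Within slides Lamp3 was higher than control on 4 of 4 slides for NRCWE-045 at 54 µg (0.30 to 0.71) and on 3 of 3 for NRCWE-044 at 54 µg (0.25 to 0.62). At 18 and 54 µg of NRCWE-043 the Lamp3 differences were 0.32 (adjusted p = 0.17) and 0.27 (adjusted p = 0.22); without replicates 5, 6, 10 and 23 the one at 18 µg was 0.15 (adjusted p = 0.60). At 18 µg Lamp3 differed from control by 0.20 for NRCWE-045 and by -0.06 for NRCWE-044, and NRCWE-044 differed from NRCWE-043 by -0.38 (adjusted p = 0.060). That last difference was -0.14 (adjusted p = 0.63) without replicates 5, 6, 10 and 23. With all arrays it passed with slide as a fixed block (-0.46, adjusted p = 0.0067) or a random block (-0.41, adjusted p = 0.020).

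Lpcat1 was lower after NRCWE-044 than after NRCWE-043 at both doses. The enzyme it encodes remodels phosphatidylcholine and makes the saturated lipid on which the surface activity of surfactant depends. At 18 µg its log2 ratios were 1.74, 1.85, 1.85, 2.44 and 0.99 in NRCWE-044, against 2.01, 2.33, 2.34, 2.69 and 2.40 in NRCWE-043. Replicate 21 of NRCWE-044, at 2.44, lay among the NRCWE-043 arrays and the other 4 lay below all of them. The difference was -0.58 (95% interval -0.94 to -0.22), or 0.67-fold, with a limma adjusted p of 0.030. At 54 µg the log2 ratios were 1.57, 1.75, 1.57, 1.71 and 2.00 in NRCWE-044, against 2.25, 2.31, 2.17, 2.18 and 2.48 in NRCWE-043. These 2 groups did not overlap, and the difference was -0.56 (95% interval -0.92 to -0.20), or 0.68-fold (limma adjusted p = 0.045). On slides that held both groups Lpcat1 was lower on 4 of 4 at 18 µg (-0.98 to -0.27) and on 3 of 3 at 54 µg (-0.92 to -0.43).

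The Lpcat1 calls lay close to the threshold. At 18 µg the call was kept in 6 of the 10 fits that left out 1 array. It was lost without replicate 23 of NRCWE-044, the lowest array (-0.38, adjusted p = 0.13), and without replicate 10, 26 or 33 of NRCWE-043 (adjusted p = 0.052, 0.088 and 0.058). It was also lost without replicates 5, 6, 10 and 23 together (-0.43, adjusted p = 0.16). The same held with Agilent's processed signals (adjusted p = 0.15) and with only the 2 groups in the fit (adjusted p = 0.20). At 54 µg the adjusted p was 0.054 to 0.12 in 9 of the 10 fits that left out 1 array. NRCWE-045 also had lower Lpcat1 values than NRCWE-043. Its log2 ratios were 1.75, 1.81, 1.97, 1.52 and 1.87 at 54 µg, all below the 5 NRCWE-043 arrays given above. The differences were -0.52 at 18 µg (95% interval -0.88 to -0.16; adjusted p = 0.061) and -0.49 at 54 µg (95% interval -0.85 to -0.13; adjusted p = 0.11), and neither passed. Lpcat1 in control read 1.88, 2.41, 1.68, 2.39 and 1.68. The control arrays thus fell into the range of both NRCWE-043 and NRCWE-044, and no dosed group passed the test against them: the differences were 0.35 (adjusted p = 0.29) and 0.27 (0.40) for NRCWE-043 at 18 and 54 µg, -0.23 (0.62) and -0.29 (0.42) for NRCWE-044, and -0.18 (1.00) and -0.22 (0.83) for NRCWE-045.

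Napsa, the aspartic protease that cleaves the SP-B and SP-C precursors, was lower after NRCWE-044 than after NRCWE-043 at 18 µg. Its log2 ratios were 4.08, 4.35, 4.16, 4.28 and 3.95 in NRCWE-044, against 4.83, 4.71, 4.43, 4.57 and 4.61 in NRCWE-043. Every NRCWE-044 array lay below every NRCWE-043 array. The difference was -0.47 (95% interval -0.70 to -0.23), or 0.72-fold, with a limma adjusted p of 0.0069, and it was -0.76 to -0.27 on the 4 slides that held both groups. The Napsa call was kept in all 10 fits that left out 1 array and was lost without replicates 5, 6, 10 and 23 together (-0.27, adjusted p = 0.27). It was also lost in the lung channel alone (-0.38, adjusted p = 0.20) and with array weights (-0.33, adjusted p = 0.062). The same held under scale normalization (-0.56, adjusted p = 0.14) and median centring (-0.65, adjusted p = 0.29). At 54 µg the Napsa ratios were 4.38, 4.35, 4.36, 4.24 and 4.67 in NRCWE-044, against 4.76, 4.62, 4.33, 4.21 and 4.64 in NRCWE-043, and the groups overlapped. At 54 µg the Napsa difference between these materials was -0.11 (adjusted p = 0.70), and against control Napsa read 0.34 (95% interval 0.10 to 0.57; adjusted p = 0.095) for NRCWE-043 at 18 µg and -0.13 (adjusted p = 0.68) for NRCWE-044 at 18 µg.

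Slc34a2, the sodium-dependent phosphate carrier of the type 2 cell's apical membrane, had the smallest range of the 9 genes over all 35 arrays and was not called in any comparison. Its reference signal was dim, with a Cy3 median of 79, and was above background on 28 arrays. Whether this narrowed its range was not tested. Its group means lay between 4.18 ± 0.31 in NRCWE-044 at 18 µg and 4.52 ± 0.14 in NRCWE-044 at 54 µg, against 4.35 ± 0.18 in control (SD, n = 5 each). Its differences from control were -0.17 to 0.17 in the main fit. Over the other settings they ran from -1.13 to 0.27 for NRCWE-043 at 18 µg and from -0.75 to 0.30 at 54 µg, with no call. Its ratios were 4.34, 4.52, 4.48, 4.53 and 4.73 at 54 µg of NRCWE-044, against 3.91, 4.26, 4.20, 4.63 and 3.87 at 18 µg, where replicate 21 alone lay among the higher values. Between 54 and 18 µg of NRCWE-044 Slc34a2 differed by 0.35 (95% interval 0.08 to 0.61; limma adjusted p = 0.12), without replicate 21 by 0.46 (adjusted p = 0.028), and without replicates 5, 6, 10 and 23 by 0.16 (adjusted p = 0.55).

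**Figure D3:**
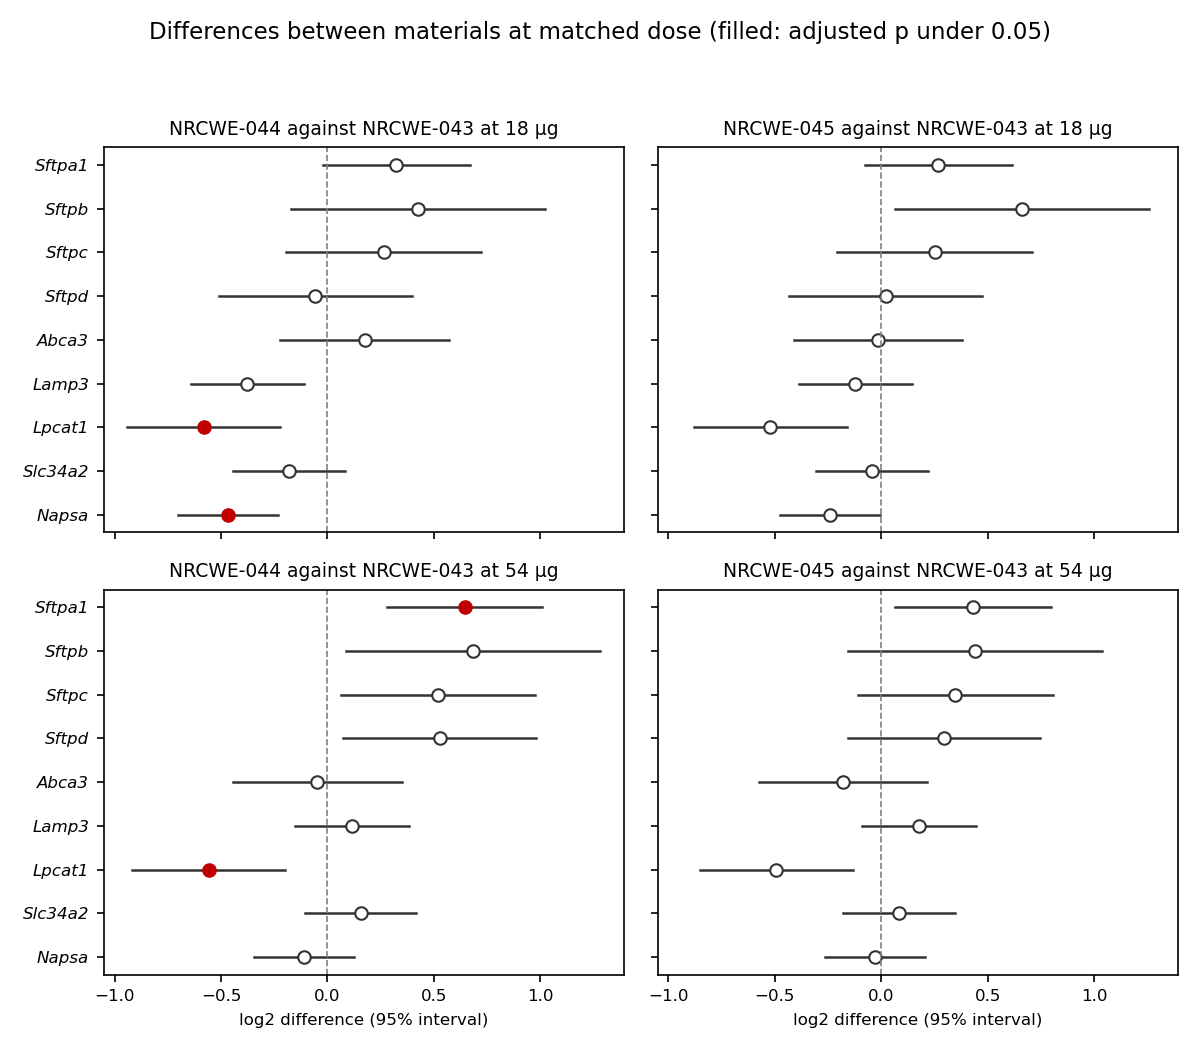
Difference in log2 ratio (horizontal axis) for NRCWE-044 against NRCWE-043 and NRCWE-045 against NRCWE-043 at 18 and 54 µg, for each of the 9 genes; circles are limma estimates, lines their 95% intervals, and filled circles have an adjusted p below 0.05. Filled circles mark Lpcat1 (-0.58) and Napsa (-0.47) at 18 µg and Sftpa1 (0.64) and Lpcat1 (-0.56) at 54 µg, all for NRCWE-044 against NRCWE-043.

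In all, 5 of the 135 gene results from comparisons of groups passed the test, for 4 genes: Lamp3, Lpcat1, Napsa and Sftpa1. Between doses, members called were 1 of 9 for NRCWE-044 (Lamp3) against 5.59% of all features. They were 0 of 9 for NRCWE-043 against 0.925%, with 0 members at an unadjusted p below 0.05 against 13.8% of all features. For NRCWE-045 they were 0 of 9 (0 unadjusted) against 0%, with 1064 features unadjusted. Between materials, NRCWE-044 against NRCWE-043 gave 2 of 9 members at 18 µg, where 10.5% of all features were called, and 2 of 9 at 54 µg, where 7.74% were. NRCWE-045 against NRCWE-043 gave 0 of 9 at 18 µg against 8.35% and 0 of 9 at 54 µg against 5.41%. Unadjusted, these were 3 members against 22.4% of all features at 18 µg and 2 against 15.7% at 54 µg. NRCWE-045 against NRCWE-044 gave 0 of 9 at 18 µg against 0.336%, with 0 members unadjusted against 12.7%. At 54 µg it gave 0 of 9 (0 unadjusted) against 0%, with 1704 features unadjusted. With 9 genes, 1 call more or less decides how such shares stand beside the background, and nothing particular to the members was read from them. Comparisons that share the NRCWE-043 arrays are not independent of each other.

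The change with dose was not shown to differ between materials for any member. For the step from 18 to 54 µg, the NRCWE-044 step minus the NRCWE-043 step called 0 of 9 members (2 unadjusted, Lamp3 at 0.49 and Napsa at 0.36) and 0% of all features, with 956 unadjusted. Without replicates 5, 6, 10 and 23 these were 0.25 for Lamp3 and 0.16 for Napsa. The same difference for NRCWE-045 and NRCWE-043 called 0 of 9 (0 unadjusted) and 0%, with 1075 unadjusted, and for NRCWE-045 and NRCWE-044 it called 0 of 9 (0 unadjusted) and 0%, with 1290 unadjusted. So the calls of Napsa at 18 µg alone and of Sftpa1 at 54 µg alone were not shown to be specific to those doses.

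Ordered by mean log2 ratio, the 7 groups ran in small steps. Of the 6 gaps between neighbouring groups for each gene, 54 in all, none was larger than the pooled SD within groups; gaps between sorted means are small by their making, and groups farther apart in the order can still differ, as Lpcat1 did between materials. Lpcat1 had the order NRCWE-043 at 18 µg (2.36 ± 0.24), NRCWE-043 at 54 µg (2.28 ± 0.13), control (2.01 ± 0.37), NRCWE-045 at 18 µg (1.83 ± 0.25), NRCWE-045 at 54 µg (1.78 ± 0.17), NRCWE-044 at 18 µg (1.77 ± 0.52) and NRCWE-044 at 54 µg (1.72 ± 0.17), all SD with n = 5. Its largest gap, 0.27, separated NRCWE-043 at 54 µg from control and was below its pooled SD of 0.29. Sftpa1, Sftpb, Sftpd and Slc34a2 were highest in NRCWE-044 at 54 µg, Sftpc and Abca3 in control, Lpcat1 and Napsa in NRCWE-043 at 18 µg, and Lamp3 in NRCWE-045 at 54 µg. NRCWE-044 at 18 µg was lowest for 4 genes: Sftpd, Lamp3, Slc34a2 and Napsa.

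The 4 surfactant protein genes moved together between arrays of the same group. Over 35 arrays (34 for pairs with Sftpa1) Pearson's r for their 6 pairs was 0.64 to 0.81, and after each group was centred on its own mean it was 0.52 to 0.88. Sftpb also followed Abca3 (r = 0.55, and 0.68 within groups). Lpcat1 followed Slc34a2 instead (r = 0.50, and 0.81 within groups), and r between Lpcat1 and the surfactant proteins was -0.44 to -0.10, but -0.09 to 0.17 within groups. Among the probes that stand for the members, Lpcat1 and Slc34a2 had the dimmest reference signals, with Cy3 medians of 177 and 79. The part of this in their r was not tested. Napsa ran slightly the other way from the surfactant proteins, at -0.40 to -0.15, and -0.38 to -0.12 within groups. These points share slides, the reference RNA and the normalisation of each array, so r is given as a description only.

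**Figure D4:**
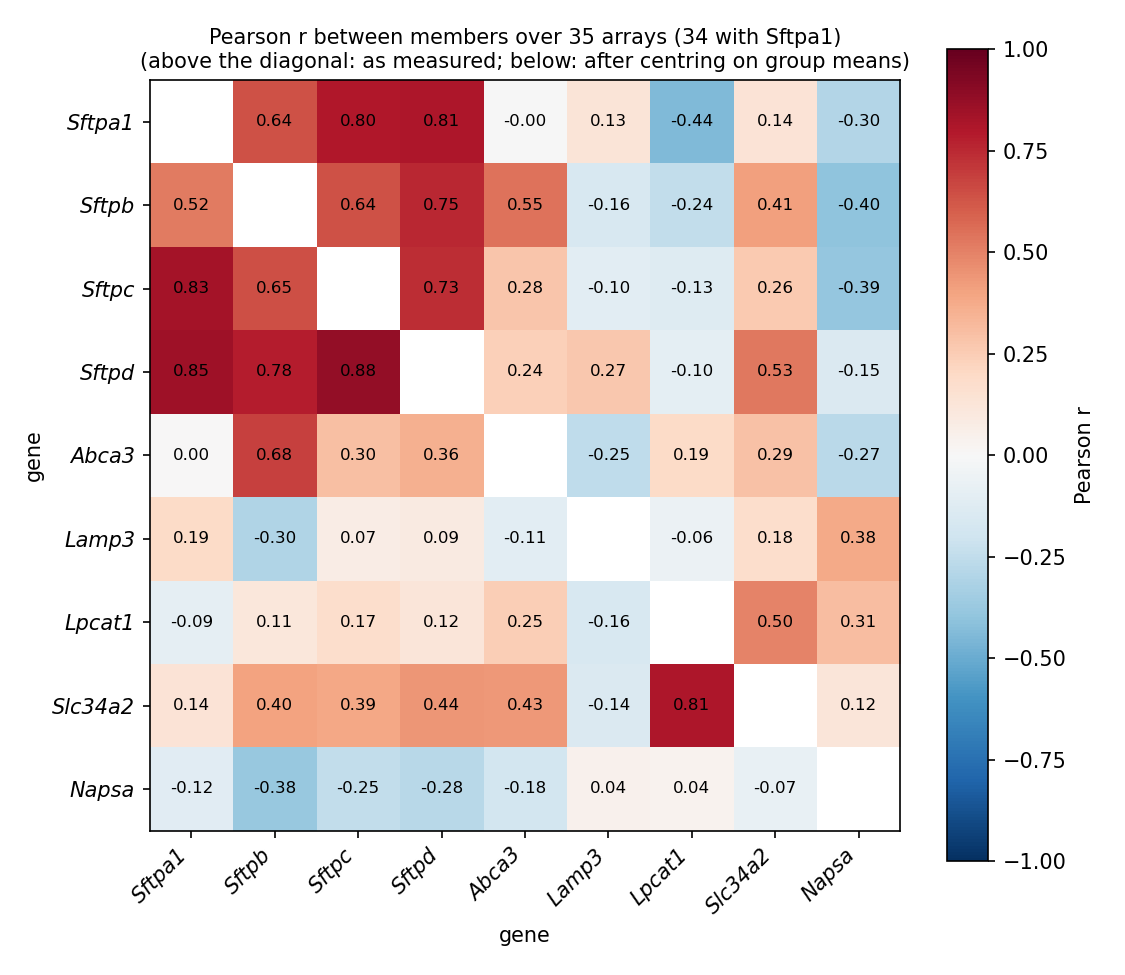
Pearson's r between the log2 ratios of each pair of the 9 genes over 35 arrays (34 for pairs with Sftpa1); cells above the diagonal use the ratios as measured and cells below it the ratios after each group was centred on its mean. Sftpa1, Sftpb, Sftpc and Sftpd form a block of 0.52 or more, and Lpcat1 with Slc34a2 reaches 0.81 below the diagonal.

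Part of this covariation followed the slides. The 3 arrays of slide 6 lay above their group means by 0.45 for Sftpa1, 0.62 for Sftpb, 0.57 for Sftpc and 0.55 for Sftpd on average, and the 8 arrays of slide 1 lay below theirs, with mean deviations of -0.17, -0.50, -0.33 and -0.42 for the same genes. On slides 6 and 1 the mean deviations of Lamp3 were 0.08 and -0.02, and those of Napsa 0.04 and 0.10. Slide 1 held 7 groups and 2 of the control arrays. Slide 6 held 1 array each of control, NRCWE-044 at 54 µg (replicate 31) and NRCWE-045 at 54 µg. No NRCWE-043 array was on slide 5 or slide 6. In the main fit, which had no slide term, slide and material are therefore partly confounded in the comparisons with NRCWE-043. This holds for its lower Sftpb and Sftpc means and for the Sftpa1 difference from NRCWE-044. Slides 2, 4 and 7 held no control array. NRCWE-044 at 18 µg was on slides 1 to 4 only, while at 54 µg replicates 31 and 34 were on slides 6 and 7. Comparisons with control and between the NRCWE-044 doses are thus partly confounded with slide as well. This includes the higher Sftpd mean at 54 µg of NRCWE-044. What made the slides differ was not tested.

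**Figure D5:**
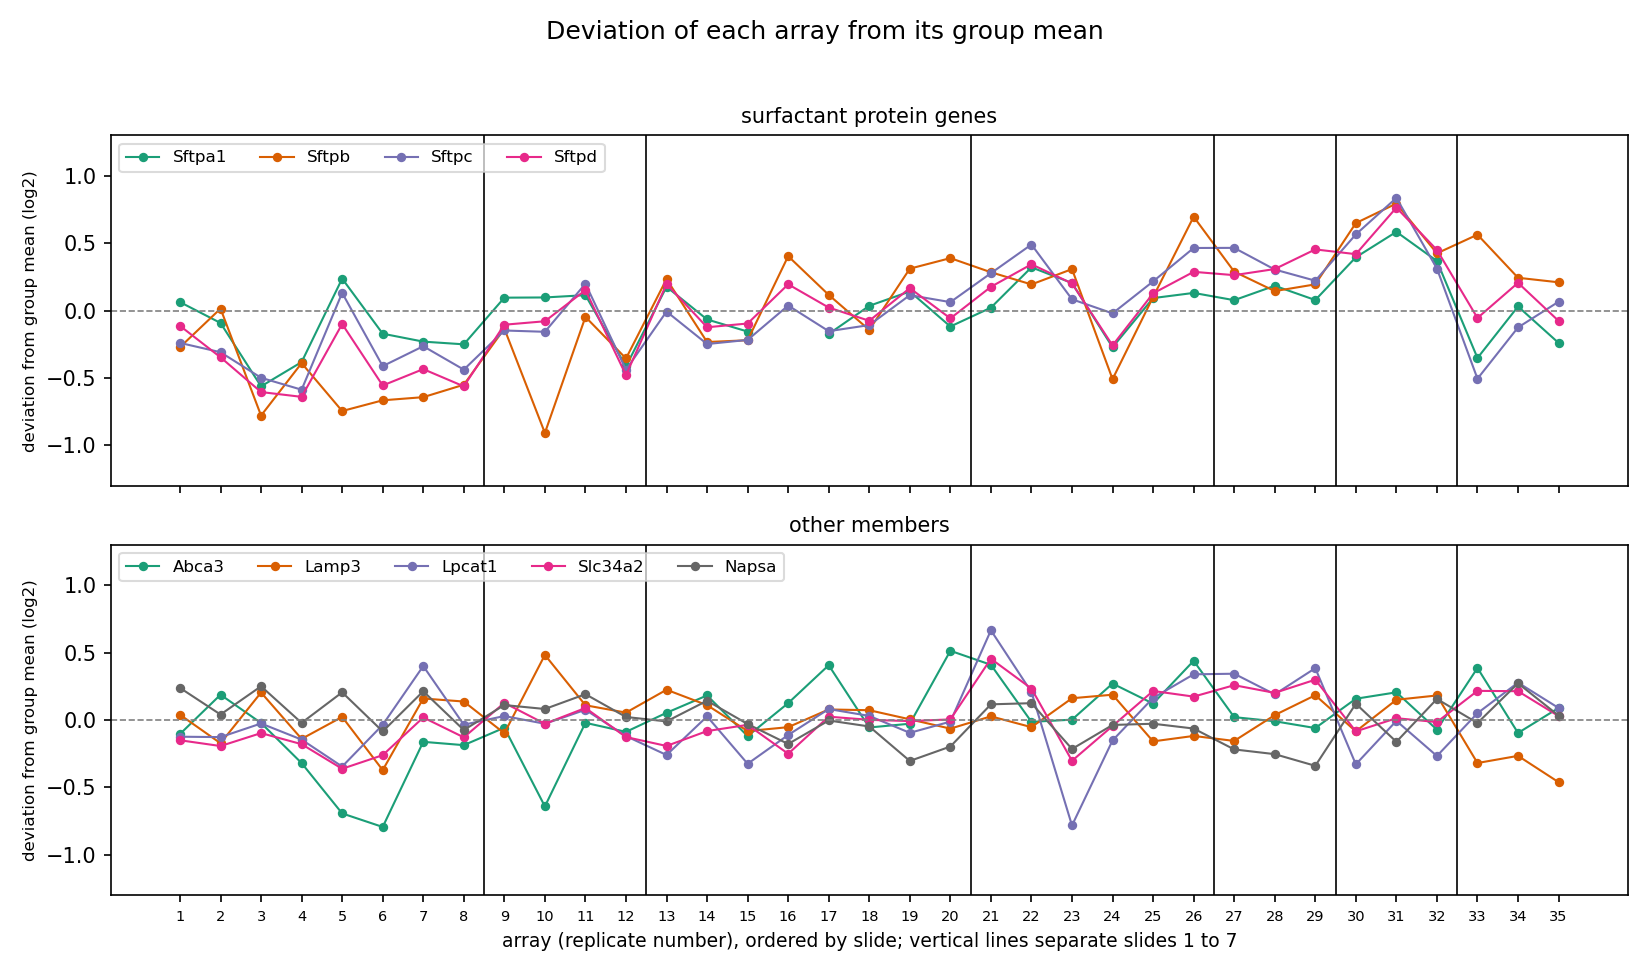
Deviation of each array's log2 ratio from its group mean (vertical axis) for the surfactant protein genes and for the other members, with the 35 arrays ordered by slide along the horizontal axis and lines between slides. The surfactant protein points lie mostly below 0 on slide 1 and above 0 on slide 6.

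Over 35 arrays and 15612 genes, the genes whose log2 ratios were most like the mean of the 9 members were Rasip1 (r = 0.87), Plvap (0.86), Sfta2 (0.86), Smim22 (0.85) and H2-Ab1 (0.84). The most opposite were Rpl34-ps1 (-0.81), Oxnad1 (-0.77), Ppwd1 (-0.77), Kin (-0.77) and Ndufa8 (-0.75). After group means were removed, Cxcl15, a chemokine of lung epithelium, led with r = 0.92, followed by Plvap (0.91), Robo4 (0.90), Hbb-bt (0.88) and Cldn5 (0.88). Plvap, Robo4 and Cldn5 are expressed in endothelium and Hbb-bt in red blood cells. Whether the amount of alveolar tissue in a section moved with these values was not tested.

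The second probes gave similar, though not identical, accounts. The 2 Sftpb probes correlated at r = 0.84 over 34 arrays and the 2 Sftpd probes at 0.80 over 35. In a fit at the level of probes the dimmer Sftpb probe was higher at 18 µg in NRCWE-044 than in NRCWE-043 (0.72, limma adjusted p = 0.016) and in NRCWE-045 than in NRCWE-043 (0.72, adjusted p = 0.019), while the brighter probe, which stands for the gene, gave 0.42 (adjusted p = 0.40) and 0.66 (adjusted p = 0.17) for Sftpb. Without replicates 5, 6, 10 and 23 the brighter Sftpb probe gave -0.0068 (adjusted p = 0.99) and 0.11 (adjusted p = 0.88); the dimmer one was not fitted without them. For NRCWE-043 at 18 µg against control the dimmer Sftpb probe gave -0.66 (adjusted p = 0.052). The dimmer Sftpd probe was called in 0 comparisons.

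Among 24 other markers of alveolar type 2 cells, all tested, 3 rose and 0 fell against control in NRCWE-043 at 54 µg, and 3 rose and 2 fell in NRCWE-044 at 54 µg; none passed in the other 4 dosed groups. Over all features 9.11% and 5.25% were called for NRCWE-043 and NRCWE-044 at 54 µg. Il33, an alarmin cytokine, rose by 1.43 (limma adjusted p = 9.5e-04) in NRCWE-043 at 54 µg and by 1.52 (adjusted p = 9.8e-04) in NRCWE-044 at 54 µg. Ctsc, a lysosomal protease, rose by 0.74 (adjusted p = 0.0022) and 0.83 (adjusted p = 0.0014) in the same groups, and Egfl6, an epithelial matrix protein, rose by 0.88 (adjusted p = 8.7e-04) in NRCWE-043 at 54 µg. Cd74, the class II invariant chain, rose by 0.53 (adjusted p = 0.031) and Bex2 fell by 1.27 (adjusted p = 0.0027) in NRCWE-044 at 54 µg. The median change of these markers was -0.08 in NRCWE-043 at 54 µg and 0.12 in NRCWE-044 at 54 µg.

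Of 24 tested genes of surfactant phospholipid and fatty acid synthesis, 1 rose and 1 fell in NRCWE-043 at 18 µg, 1 rose and 1 fell at 54 µg, and 2 rose and 0 fell in NRCWE-044 at 54 µg, with 0 in the other 3 dosed groups. Over all features 3.93%, 9.11% and 5.25% were called in those 3 comparisons, so 2 of 24 is near the background. Elovl1, a fatty acid elongase, rose by 0.49 (limma adjusted p = 0.040) and 0.50 (adjusted p = 0.019) at 18 and 54 µg of NRCWE-043. Pemt, which methylates phosphatidylethanolamine, rose by 0.47 (adjusted p = 0.042) and Acsl4, an acyl-CoA synthetase, by 0.51 (adjusted p = 0.025) in NRCWE-044 at 54 µg. Cept1, which makes phosphatidylcholine and phosphatidylethanolamine, fell by 0.40 (adjusted p = 0.025) in NRCWE-043 at 18 µg.

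Of 16 genes of surfactant uptake, breakdown and clearance, 1 rose in NRCWE-043 at 18 µg (3.93% of all features called), 2 rose and 4 fell in NRCWE-043 at 54 µg (9.11%), 2 rose and 3 fell in NRCWE-044 at 54 µg (5.25%), and 2 rose and 0 fell in NRCWE-045 at 54 µg (0.256%). Csf2rb, the shared beta chain of the GM-CSF receptor through which macrophages are equipped to clear surfactant, rose by 0.76 (limma adjusted p = 1.1e-04), 0.78 (adjusted p = 1.7e-04) and 0.70 (adjusted p = 0.018) in NRCWE-043, NRCWE-044 and NRCWE-045 at 54 µg. Csf2rb and its near copy Csf2rb2 (0.67, 0.72 and 0.63 in the same groups) may share signal. Abcg1, a lipid exporter, fell by 0.57 (adjusted p = 0.024) in NRCWE-043 and by 0.75 (adjusted p = 0.0048) in NRCWE-044 at 54 µg, and Prdx6, which degrades surfactant phospholipid, fell by 0.80 (adjusted p = 0.0016) in NRCWE-043 at 54 µg. Of 15 transcription factors of type 2 cells only Nr3c1, the glucocorticoid receptor, passed against control, where it fell by 0.51 (adjusted p = 0.0054) in NRCWE-044 at 54 µg.

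Several lists of markers of other cells held calls at 54 µg of NRCWE-043 and NRCWE-044, where 9.11% and 5.25% of all features were called. Of 16 tested genes of injured and transitional alveolar epithelium, 4 rose and 1 fell in NRCWE-043 at 54 µg and 4 rose and 0 fell in NRCWE-044 at 54 µg, led by Orm1 at 2.47 (limma adjusted p = 1.2e-05) and 1.84 (adjusted p = 6.2e-04). Of 14 type 1 cell markers, 2 rose and 1 fell in NRCWE-043 at 54 µg, among them the water channel Aqp5 at 0.61 (adjusted p = 0.0046). Of 8 club cell markers, 0 rose and 4 fell in NRCWE-043 at 54 µg, among them Scgb1a1 at -0.83 (adjusted p = 0.0059). Of 12 neutrophil markers, 6 rose and 1 fell in NRCWE-043 at 54 µg and 3 rose and 0 fell in NRCWE-044 at 54 µg. Their mean log2 ratio was 2.10 to 2.43 over the arrays of NRCWE-043 at 54 µg and 1.82 to 2.83 over those of NRCWE-044 at 54 µg, against 0.90 to 2.24 in control. Of 12 alveolar macrophage markers 0 rose and 3 fell in NRCWE-043 at 54 µg, and 3 rose and 1 fell in NRCWE-044 at 54 µg.

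At 54 µg of NRCWE-043 and of NRCWE-044 the remaining lists gave few calls: 0 rose and 1 fell, and 0 and 0, of 9 ciliated cell markers; 0 rose and 2 fell, and 1 and 2, of 10 fibroblast markers; 0 and 0, and 1 and 0, of 12 endothelial markers; and 0 in either direction of 11 lymphocyte, 11 heart muscle, 8 adipose and 5 red blood cell markers. The heart muscle markers averaged -0.14 to 2.14 over arrays of NRCWE-044 at 54 µg and -0.16 to 1.64 over those of NRCWE-043 at 54 µg, against -0.26 to 2.60 in control. The adipose markers averaged 0.28 to 4.67 in NRCWE-044 at 54 µg and 0.27 to 3.91 in NRCWE-043 at 54 µg, against 0.77 to 1.65 in control. The part of these other tissues in the member values was not tested, beyond the fits without the 9 arrays with a heart muscle score above 1.5, in which the Napsa difference at 18 µg (-0.46, adjusted p = 0.025) and the Sftpa1 difference at 54 µg (0.76, adjusted p = 0.034) kept their calls and those of Lpcat1 at 18 µg (-0.39, adjusted p = 0.19) and 54 µg (-0.55, adjusted p = 0.094) did not.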

How the data were processed

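Lung RNA (200 ng per array, Cy5) and reference RNA (Cy3) were hybridised to 2-colour Agilent arrays, per the labels' protocols. The deposited scanner tables hold spot intensity, written by Agilent Feature Extraction 11.0.1.1 per the file headers. The authors also deposited log2 ratios in a series-wide file; the labels and file headers do not state how they were normalized. It was set against loess-normalized log2 ratios computed here without background correction, which are not the background-corrected values behind the main results. Its columns gave r = 0.994 to 1.00, a median slope of 0.994, the same direction (lung over reference) and column medians of -0.04 to 0.018. The deposited file served as an alternative.

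Median signals were background-corrected (normexp, offset 50), normalized by loess within each array and averaged per probe; of 59305 spots, 3671 control spots had weight 0, and 1403 probe values were left missing where every spot was marked. A probe was tested if 3 or more of the 5 arrays of some group had it well above background in Cy5, which kept 34326 of 55681 probes. Symbols came from RefSeq (GRCm38.p6); the brightest probe stood for a gene and unnamed probes stayed separate, giving 29719 features. Group means over all 35 arrays were fitted in limma 3.58.1 (R 4.3.3, with version 1.17.8 of data.table), with 18 comparisons: 6 with control, 3 between doses, 6 between materials and 3 differences between dose steps. The number of arrays limits the precision, and 95% intervals are from the fit. The procedure was tested on simulated data.

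The 9 members are named in every comparison; of each other list, its counts and up to 4 members with the smallest adjusted p. Members and lists were chosen with earlier results of these data known. Alternatives covered background correction, normalization, filters, marked spots, probe choice, slides, weights, arrays in the fit and single arrays. Added after seeing the data were fits without replicates 5, 6, 10 and 23, without arrays with a heart muscle score above 1.5, and with 1 probe per accession for unnamed probes.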

Additional observations from a re-analysis of the deposited data

Results flagged for a closer look

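In 6 of 63 sets of arrays (9 genes in 7 groups, with 5 arrays each but 4 for Sftpa1 in NRCWE-043 at 54 µg) 1 array lay far from the rest of its group. The measure was its gap to the next array over the range of the group. Chance alone gives about 1 in 20 for a single set. The sets share arrays and some of the genes are correlated, so the count is not weighed against that rate. Sftpa1 read 6.74 on replicate 12 of NRCWE-045 at 18 µg, with the next array at 7.22. Sftpd read 8.34 on replicate 26 of NRCWE-043 at 18 µg, with the next at 8.00, and 7.44 on replicate 6 of NRCWE-044 at 18 µg, with the next at 8.02. Lamp3 on that same replicate 6 read 2.66, with the next at 3.06, and Lamp3 on replicate 35 of NRCWE-045 at 54 µg read 3.07, with the next at 3.57. Abca3 read 3.49 on replicate 16 of NRCWE-043 at 54 µg, with the next at 3.36, in a group with an SD of 0.07.

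In 4 results the materials NRCWE-044 and NRCWE-043 differed at a matched dose by limma's test of that difference: Lpcat1 by -0.58 at 18 µg and by -0.56 at 54 µg, Napsa by -0.47 at 18 µg and Sftpa1 by 0.64 at 54 µg. Their adjusted p-values were 0.030, 0.045, 0.0069 and 0.020.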

How the results depend on the processing

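Over the planned and added settings, 2829 of 2889 results for single members kept their side of the threshold (a value that passed under neither setting counts as kept, and 241 such values changed sign), 27 lost and 31 gained a call, and 2 turned. Most of these results were never called. Of 18 settings, Lamp3 between the doses of NRCWE-044 kept its call in 10. For NRCWE-044 against NRCWE-043, Lpcat1 and Napsa at 18 µg kept theirs in 13 each. At 54 µg Sftpa1 kept its call in 14 and Lpcat1 in 12. In the lung channel alone Sftpd in NRCWE-043 at 54 µg against control was 0.65 (adjusted p = 0.0041; -0.06 as a ratio), and Sftpa1 in NRCWE-044 against NRCWE-043 at 54 µg was -0.070; the cause was not tested. Members called against control were 0 in every group, but 1 for NRCWE-043 at 18 µg in the lung channel alone (Lpcat1), with slide as a fixed block (Sftpb) or without control replicates 7 and 29 (Lpcat1), and 0 to 1 when 1 array was left out (without control replicate 7, Napsa at 0.39). The count was 1 for NRCWE-043 at 54 µg in the lung channel alone. For NRCWE-044 at 54 µg it was 2 with slide as a fixed block (Sftpd and Lamp3) and 1 with slide as a random block, array weights or without replicates 5, 6, 10 and 23 (Lamp3); for NRCWE-045 at 54 µg it was 1 with slide as a fixed block, array weights or without those 4 replicates, and 0 to 1 with 1 array left out.

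For 54 against 18 µg of NRCWE-044 the count of 1 became 0 under median centring, scale normalization, the lung channel alone, the authors' deposited values, no filter on dim probes, only the 2 groups in the fit, and without the arrays with a high heart muscle score; without replicates 5, 6, 10 and 23 it stayed 1, Lamp3 losing its call (0.37) and Abca3 gaining one (-0.37). It was 0 to 1 with 1 array left out, Lamp3 losing its call without replicates 6, 17, 18, 21, 24 or 31. For NRCWE-044 against NRCWE-043 at 18 µg the count of 2 became 0 under median centring and without replicates 5, 6, 10 and 23. It became 1 under scale normalization, the lung channel alone or array weights, where Napsa lost its call. Lpcat1 lost its call, again leaving 1, with Agilent's processed signals, only the 2 groups, or without the arrays with a high heart muscle score. With the deposited values Lamp3 gained a call (-0.50, limma adjusted p = 0.021) and Lpcat1 and Napsa kept theirs. The same held with slide as a fixed block (limma adjusted p = 0.0067) or a random block (limma adjusted p = 0.020). With 1 array left out the count was 1 to 2. At 54 µg the count of 2 became 0 under median centring and 1 under scale normalization, the lung channel alone, Agilent's processed signals, no filter, only probes above background on all arrays, slide as a fixed block, only the 2 groups, and without the arrays with a high heart muscle score; it was 0 to 2 with 1 array left out. For NRCWE-045 against NRCWE-043 at 18 µg the count of 0 became 2 with slide as a fixed block (Lpcat1 and Sftpb) or without replicates 5, 6, 10 and 23 (Lpcat1 and Abca3, with Sftpb at 0.11), and 1 in the lung channel alone, with Agilent's processed signals, the deposited values, slide as a random block, array weights, only the 2 groups, or without control replicates 7 and 29; it was 0 to 1 with 1 array left out. At 54 µg it became 1 (Lpcat1) under scale normalization, the lung channel alone, array weights, only the 2 groups, or without replicates 5, 6, 10 and 23. The causes were not tested.

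Median centring moved the median of all features in NRCWE-044 against NRCWE-043 at 54 µg to -0.15, from -0.01; relative to it Lpcat1 was at -0.63 and Sftpa1 at 0.48. Calls over all features moved with the settings as well. Median centring cut them from 1169 to 75 for NRCWE-043 at 18 µg against control. For 54 against 18 µg of NRCWE-044 it cut them from 1661 to 77, and using only the 2 groups gave 714. For NRCWE-044 against NRCWE-043 it cut them from 3120 to 688 at 18 µg and from 2300 to 1110 at 54 µg. With slide as a fixed block they rose from 1561 to 2299 for NRCWE-044 at 54 µg against control. The moves in member counts are not read as particular to the members. No paired analysis was possible because the groups share no replicate numbers; shared slides were used as a block in the fits named above.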
